A study of Homo sapiens with 3 samples.

Results

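The aminoacyl-tRNA synthetases, the enzymes that load each transfer RNA with its amino acid, were followed in the mRNA of LX-2, an immortalized line of human hepatic stellate cells, with and without recombinant human FGF19 (rhFGF19). The members were a list of 36 gene symbols, and all 36 were found among the 26108 genes of the deposited table. They comprised 20 genes of cytosolic enzymes, of which GARS1 and KARS1 also supply the mitochondrion, and 16 genes of mitochondrial enzymes. The study sequenced 1 mRNA library from cells given vehicle, 1 from cells given rhFGF19 at 50 ng/mL (the low dose) and 1 from cells given it at 100 ng/mL (the high dose), so no difference had a replicate check and no p-value was computed. The titles and the agent field give these doses and the design text gives 24 h of stimulation, whereas the description field exchanges the doses and gives 72 h and 73 h. The titles were followed here. LX-2 is a single culture line rather than tissue, and all 3 libraries came from it.

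Each proteinogenic amino acid is attached by its own synthetase, which also sets the accuracy of translation. The cytosolic and the mitochondrial enzymes are mostly encoded by separate nuclear genes, and the mitochondrial ones serve the small set of respiratory chain proteins made in that organelle. Several cytosolic synthetases sit together in the multisynthetase complex. Transcription of many cytosolic synthetase genes is known to be raised by ATF4, the factor induced when uncharged tRNA or other stress activates eIF2 kinases. The question put to these libraries was whether the cytosolic and the mitochondrial enzymes differed in level and in their difference between rhFGF19 and vehicle.

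The values were FPKM, fragments of a transcript scaled to its length and to the mapped total, so genes of different length can be compared. The levels were not corrected for GC content, which limits comparisons of level between genes. FPKM summed to 302243 in the vehicle library, 276690 at the low dose and 281606 at the high dose. They hold no read counts, so the depth was unknown. Fold changes were differences of log2(FPKM + 0.1), a scale that shrinks the changes of weakly expressed genes, and were computed where the 3 libraries averaged 0.5 FPKM or more, which left 12447 genes. Of the members, 35 passed that limit. TARS3, a second cytosolic threonyl enzyme, did not, with 0.13 FPKM in vehicle, 0.45 at the low dose and 0.65 at the high dose. The median log2 fold change over all genes tested was 0.62 at the low dose and 0.61 at the high dose, and genes with GC-rich transcripts had lower values, so the members are set beside all genes throughout. In bulk mRNA, fewer cells of a kind and less RNA per cell cannot be told apart. Of 9 stellate cell markers, COL1A1, VIM and TAGLN were at 78.4, 439 and 223 FPKM in vehicle. ACTA2, PDGFRB and COL3A1 were at 8.55, 3.86 and 1.79 FPKM. COL1A2 was near absent, at 0.03, 0.10 and 0.14 FPKM in vehicle and at the low and high doses. LRAT was listed at 0 in all 3 libraries and DES at 0 in 2 of them. Of the epithelial markers, KRT8 was at 121, 81.9 and 78.5 FPKM in vehicle and at the low and high doses. KRT18 was at 382, 226 and 224 FPKM. The other epithelial markers were low or absent. EPCAM was not listed, and CLDN4, KRT19 and CDH1 were at 1.07, 0.11 and 0.01 FPKM in vehicle. Of the hepatocyte markers, ALB was at 2.16, 2.49 and 1.89 FPKM and SERPINA1 at 8.93 FPKM in vehicle. APOA1, APOB, TTR and TF were at or below 0.37 FPKM in every library. Of the blood cell markers, CD68 was at 47.5 FPKM in vehicle, while PTPRC and CD3E were not listed. CD14, LYZ and HBB were at 4.28, 0.16 and 0 FPKM in vehicle. The part of these genes in the synthetase values was not tested.

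In the vehicle library the cytosolic enzymes were at a higher level than the mitochondrial ones, with a median of 10.4 FPKM over 20 genes against 5.30 FPKM over 16 genes. The cytosolic enzymes spread from 0.13 to 121 FPKM and the mitochondrial enzymes from 0.65 to 16.6 FPKM, so the ranges overlapped widely. The most abundant member was QARS1 (ENSG00000172053, chromosome 3 from 49095932 to 49105123), which charges glutamine tRNA, at 121 FPKM in vehicle, 90.0 at the low dose and 89.4 at the high dose. FARSA, the catalytic subunit of the cytosolic phenylalanyl enzyme, followed in vehicle at 79.9 FPKM, and SARS1, the seryl enzyme, at 65.4 FPKM. In the rhFGF19 libraries SARS1 was second at 70.0 and 70.4 FPKM, and FARSA was at 44.5 and 45.0 FPKM. The lowest cytosolic enzymes in vehicle after TARS3 were LARS1, FARSB and GARS1, at 0.46, 0.56 and 0.77 FPKM.

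Among the mitochondrial enzymes SARS2 was highest in vehicle, at 16.6 FPKM, ahead of VARS2 at 13.6 and TARS2 at 12.1 FPKM. In both rhFGF19 libraries YARS2, the mitochondrial tyrosyl enzyme, was highest, at 21.7 and 20.7 FPKM, where vehicle had 9.85 FPKM. WARS2 and MARS2, for tryptophan and methionine, were lowest in vehicle at 0.65 and 1.09 FPKM. Summed over members, cytosolic enzymes held 468 FPKM in vehicle, 505 at the low dose and 495 at the high dose. The mitochondrial sums were 103, 120 and 120 FPKM. These sums rest on the few most abundant genes.

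**Figure D1:**
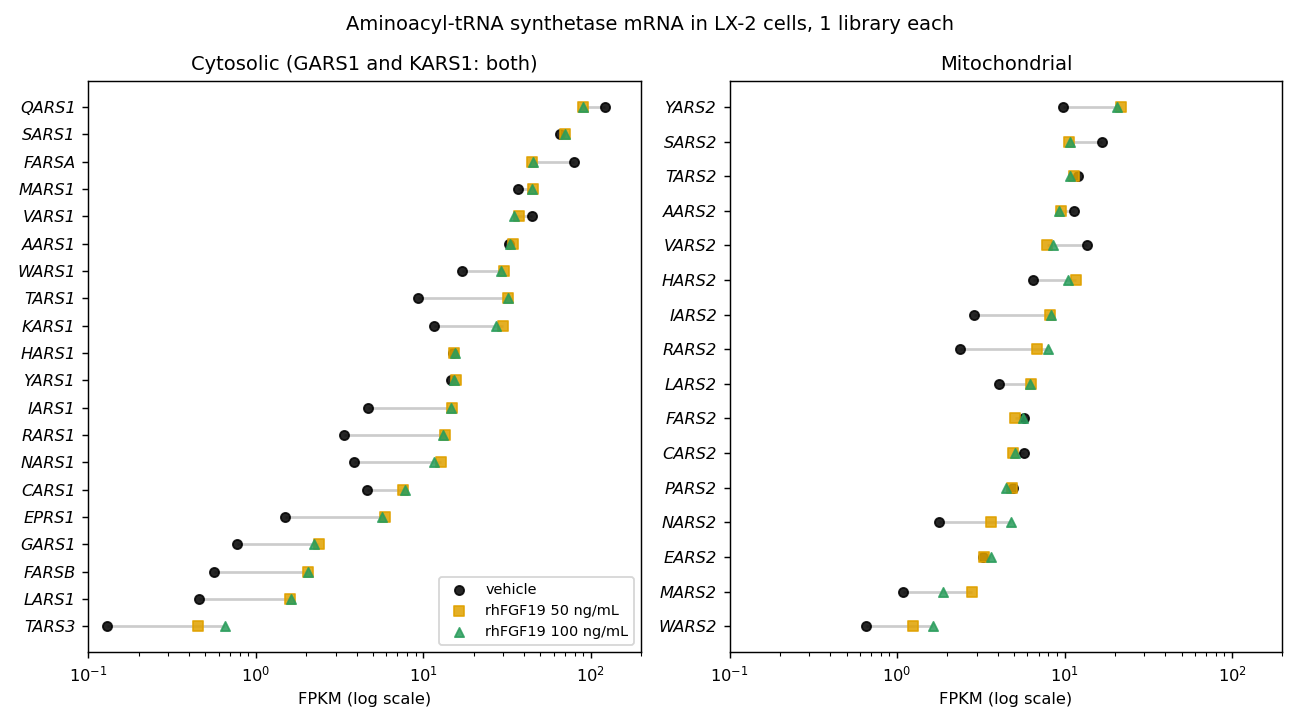
FPKM of each of the 36 synthetase genes (horizontal axis, log scale) in the vehicle library (black circles), at the low dose (yellow squares) and at the high dose rhFGF19 (green triangles), with cytosolic enzymes on the left and mitochondrial enzymes on the right; grey lines join the lowest and the highest library of a gene. QARS1, SARS1 and FARSA lie highest, and enzymes such as RARS1 and EPRS1 have both rhFGF19 libraries together, well to the right of vehicle.

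Against vehicle, the synthetases as a whole did not stand apart from other genes. At the low dose, 13 of the 35 members tested (37.1%) were past 2-fold higher, where 39.4% of all genes were. At the high dose it was 14 of 35, or 40.0%, where 38.5% of all genes were. In both libraries 12 members were past 2-fold higher, against 36.2% of all genes. No member was past 2-fold lower at either dose, and the share of all genes that were was 1.78% at the low dose and 1.58% at the high dose. Both comparisons share the single vehicle library, so they are not independent of each other.

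Split by compartment, 9 of the 19 cytosolic enzymes tested were past 2-fold higher at each dose. Of the 16 mitochondrial enzymes, 4 were at the low dose and 5 at the high dose. Of all genes, 39.4% were at the low dose and 38.5% at the high dose. All 9 cytosolic genes had a GC content under 48%, where 75.0% of all genes were past 2-fold higher in both rhFGF19 libraries. The median log2 fold change of the cytosolic enzymes was 0.82 at the low dose and 0.77 at the high dose. That of the mitochondrial enzymes was 0.31 and 0.37, so the compartments differed by 0.50 and 0.39. Without GARS1 and KARS1 the cytosolic medians were 0.71 and 0.75. The transcripts of the cytosolic enzymes had a median GC content of 48.9%, and those of the mitochondrial enzymes 52.1%. The trend that all genes followed on GC content was then removed. The averaged log2 fold change had a median of 0.11 for the cytosolic and -0.086 for the mitochondrial enzymes, a difference of 0.20. By dose, the differences were 0.26 at the low and 0.15 at the high dose. With the GC content of each gene's longest transcript, they were 0.45 and 0.35. That choice was made after seeing the data. Within each compartment the members spanned more than the compartments differed, from -0.83 to 1.94 for cytosolic and from -0.72 to 1.60 for mitochondrial enzymes.

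The 9 cytosolic genes past 2-fold in both rhFGF19 libraries were RARS1, EPRS1, TARS1, FARSB, NARS1, IARS1, LARS1, GARS1 and KARS1. RARS1, the arginyl enzyme (ENSG00000113643, chromosome 5 from 168486451 to 168519298), had the highest fold change of the 35 members tested. Its level was 3.38 FPKM in vehicle, 13.4 at the low dose and 13.1 at the high dose, or log2 fold changes of 1.95 and 1.92. EPRS1 (ENSG00000136628, chromosome 1 from 219968600 to 220046530) encodes a fused enzyme for glutamate and proline. It was at 1.49, 5.94 and 5.69 FPKM, with log2 fold changes of 1.93 and 1.86. TARS1, for threonine (chromosome 5 from 33440696 to 33468091), was at 9.24, 32.1 and 31.9 FPKM, 3.45-fold and 3.42-fold higher on that scale. In each of these genes the rhFGF19 libraries lay close together and far above vehicle.

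NARS1, the asparaginyl enzyme, was at 3.83 FPKM in vehicle, 12.8 at the low dose and 11.7 at the high dose. IARS1, for isoleucine, was at 4.69, 14.8 and 14.6 FPKM. LARS1, for leucine and also known as a leucine sensor of the mTORC1 pathway, was at 0.46, 1.60 and 1.62 FPKM. It passed the limit on low values through the rhFGF19 libraries only. GARS1, for glycine, was at 0.77, 2.37 and 2.22 FPKM, and KARS1, for lysine, at 11.7, 29.8 and 27.1 FPKM. The genes that serve both compartments thus had log2 fold changes of 1.51 and 1.42 for GARS1 and of 1.35 and 1.21 for KARS1.

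The other 10 cytosolic enzymes tested did not pass 2-fold at either dose. WARS1, the tryptophanyl enzyme known for its induction by interferon gamma, was at 17.1, 30.2 and 29.2 FPKM, with log2 fold changes of 0.82 and 0.77. CARS1, for cysteine, was at 4.58, 7.57 and 7.78 FPKM. MARS1, for methionine, was at 36.9, 44.9 and 44.3 FPKM. Those of AARS1, HARS1, SARS1 and YARS1 lay between 0.01 and 0.11 at both doses, and all 4 turned slightly negative when the ratios to vehicle were centred on genes of at least 1 FPKM. VARS1, for valine, was at 44.8, 37.3 and 34.9 FPKM. It, QARS1 and FARSA had negative log2 fold changes, at -0.26, -0.43 and -0.84 at the low dose and -0.36, -0.44 and -0.83 at the high dose. MARS1 overlaps DDIT3 on the other strand by 982 bases, and whether strand was used in counting is not given in the sources used here.

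Of the mitochondrial enzymes, RARS2, IARS2 and YARS2 were past 2-fold higher in both rhFGF19 libraries. RARS2, for arginine (ENSG00000146282, chromosome 6 from 87513938 to 87589987), was at 2.36 FPKM in vehicle, 6.80 at the low dose and 7.94 at the high dose. IARS2, for isoleucine, was at 2.89, 8.18 and 8.33 FPKM, or 2.77-fold and 2.82-fold higher. YARS2 (ENSG00000139131, chromosome 12 from 32727490 to 32755897) had log2 fold changes of 1.13 and 1.06. Its listed span overlaps that of DNM1L on the other strand by 18161 bases. MARS2, NARS2 and WARS2 were past 2-fold in 1 of the rhFGF19 libraries each, and these were the mitochondrial genes on which the doses differed most.

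HARS2 and LARS2, for histidine and leucine, had log2 fold changes of 0.84 and 0.62 at the low dose and of 0.68 and 0.60 at the high dose. EARS2, for glutamate, was at 3.27, 3.29 and 3.63 FPKM. The remaining 7 mitochondrial enzymes had negative averaged log2 fold changes. VARS2 was lowest of them, at 13.6 FPKM in vehicle, 7.91 at the low dose and 8.57 at the high dose, and it overlaps another listed gene on its own strand by 12255 bases. SARS2 was at 16.6, 10.6 and 10.8 FPKM. AARS2, for alanine, was at 11.4, 9.57 and 9.29 FPKM, and TARS2, for threonine, at 12.1, 11.4 and 10.8 FPKM. AARS2, CARS2, TARS2, FARS2 and PARS2 had averaged log2 fold changes between -0.27 and -0.07, and those of FARS2 and PARS2 turned positive when the values were rescaled to TPM. Over all genes tested, 34.5% had an averaged log2 fold change below 0, as did 3 of 19 cytosolic and 7 of 16 mitochondrial enzymes.

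**Figure D2:**
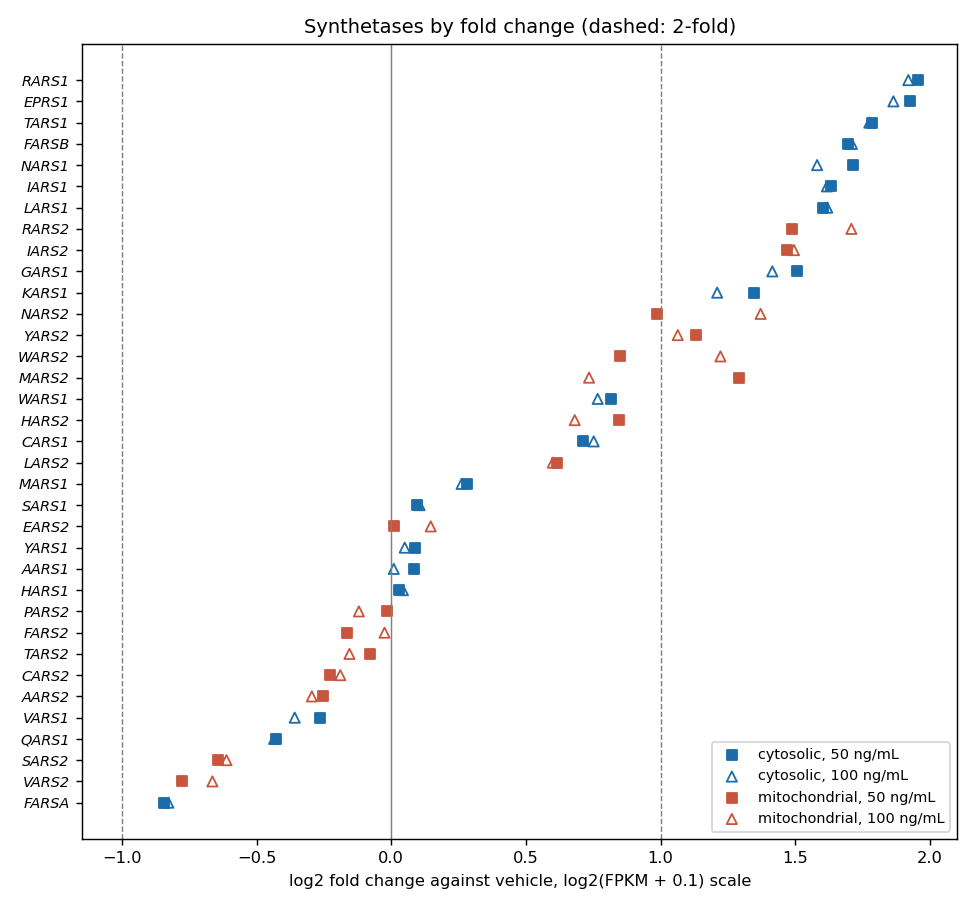
Log2 fold change against vehicle of the 35 synthetases tested, on the log2(FPKM + 0.1) scale, at the low dose (filled squares) and 100 ng/mL rhFGF19 (open triangles), with cytosolic enzymes in blue and mitochondrial enzymes in red, ordered by the average of both doses. The dashed lines mark 2-fold, and the upper 7 genes, from LARS1 to RARS1, are all cytosolic.

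The rhFGF19 libraries were close to each other for these genes. No member differed by more than 2-fold between the doses, where 0.844% of all genes were higher and 0.884% lower at the higher dose. The median difference over the 35 members was -0.016 on the log2 scale. Each cytosolic enzyme tested differed by at most 0.14 between doses. The mitochondrial enzymes reached 0.56, in MARS2, which was at 1.09 FPKM in vehicle, 2.81 at the low dose and 1.88 at the high dose. NARS2 was at 1.79, 3.65 and 4.79 FPKM and WARS2 at 0.65, 1.25 and 1.65 FPKM, so these were higher at the high dose. The SD of this difference over all genes tested was 0.34, and 0.13 over genes of at least 10 FPKM.

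The order of the members followed the GC content of their transcripts, which the list did not use. GC content was the median over the transcripts listed for a gene. Across the 35 members the Spearman correlation of the averaged log2 fold change with GC content was -0.93, and across the 12397 genes with a GC value it was -0.78. It was -0.92 over the 19 cytosolic and -0.94 over the 16 mitochondrial enzymes. All these points share the same 3 libraries, and genes are not replicates, so the values are descriptions. With the GC content of each gene's longest transcript instead, a choice made after seeing the data, the correlation over the members was -0.87. Between the rhFGF19 libraries it was 0.027 over the members.

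Of the 13 members with a GC content under 48%, 11 were past 2-fold higher in both rhFGF19 libraries, where 75.0% of all genes in that range were. These included all 9 cytosolic genes in the range. Of the 7 members from 48% to 52%, only YARS2 was, against 34.5% of all genes in that range. None of the 15 members at 52% or above was past 2-fold higher at either dose, and 4.93% of all genes in that range were in both. These limits were chosen after the values were seen. What belongs to the treatment and what to the single vehicle library cannot be told apart.

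Relative to genes of similar GC content, the members lay close to the trend. No member was more than 2-fold from it, and 33 of 35 (94.3%) lay within 1.5-fold. Of all genes with a GC value, 7.99% were more than 2-fold from the trend and 76.2% lay within 1.5-fold. The median level in vehicle was 5.7 FPKM over the 36 members and 2.7 FPKM over all genes tested. The part of expression level in this closeness was not tested. YARS1 was farthest, 0.82 below on the log2 scale, followed by SARS1 at 0.62 below. With the GC content of the longest transcript these values were 0.10 for YARS1 and -0.37 for SARS1, and HARS1 was then at -0.97 and GARS1 at 1.47. These depend on which transcript stands for the gene: GARS1 had a GC content of 43.4% by the median and 55.5% by its longest transcript, and YARS1 48.9% and 55.7%. TARS1, YARS2, RARS1 and EPRS1 were highest above the trend by the median GC content, at 0.48, 0.47, 0.47 and 0.44. By the longest transcript they were at 0.51, 0.43, 0.56 and 0.60, so these 4 stayed above the trend under both measures.

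The enzymes of the multisynthetase complex on the list were EPRS1, IARS1, KARS1, LARS1, MARS1, QARS1 and RARS1. Of these 7, 5 were past 2-fold higher in both rhFGF19 libraries, where 36.2% of all genes and 75.0% of genes under 48% GC were, and 5 of the 7 lay in that GC range. Their median log2 fold change was 1.60 at the low dose and 1.62 at the high dose. The other 12 cytosolic enzymes tested had medians of 0.40 and 0.43. The median GC content was 42.7% in the complex and 49.9% outside it, and after removal of the GC trend the averaged medians were 0.20 and 0.0060. QARS1 and MARS1 were the exceptions, with transcript GC contents of 55.4% and 52.6%.

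The complex also holds scaffold proteins without synthetase activity. AIMP1 was at 0.51 FPKM in vehicle, 1.46 at the low dose and 1.49 at the high dose, and EEF1E1 at 1.08, 4.33 and 4.47 FPKM. AIMP2, a central scaffold of the complex, was at 25.8, 18.0 and 18.3 FPKM, with log2 fold changes of -0.52 and -0.49. It was also 0.96 below genes of similar GC content. The mRNAs for parts of 1 complex thus lay on both sides of their vehicle levels.

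The cytosolic phenylalanyl enzyme is built from equal numbers of FARSA and FARSB chains, and its genes lay at opposite ends of the fold changes. FARSA (ENSG00000179115, chromosome 19 from 12922479 to 12934037) was at 79.9, 44.5 and 45.0 FPKM. FARSB (ENSG00000116120, chromosome 2 from 222566899 to 222656092) was at 0.56, 2.04 and 2.06 FPKM. The FPKM of FARSA was 143 times that of FARSB in vehicle and 21.8 times in both rhFGF19 libraries. On the log2 scale used for the fold changes, FARSA lay 6.92 above FARSB in vehicle and 4.38 above it at both doses. The levels of the subunits thus came closer together, with a shift in their ratio of -2.54 at each dose. The transcripts of FARSA and FARSB had GC contents of 62.0% and 40.9%, the largest gap of the gene pairs compared here. With the GC trend removed the shift averaged over the doses was -0.68. FARSA overlaps an antisense gene by 2775 bases, which was listed at 0.68 FPKM in vehicle and at 0 in both rhFGF19 libraries.

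For 13 amino acids the list holds 1 gene of each compartment, leaving TARS3 aside. The cytosolic gene was the higher of the pair in 10 of 13 in vehicle and in 11 of 13 in each rhFGF19 library. The median FPKM ratio was 2.14 in vehicle, 2.82 at the low dose and 2.43 at the high dose. MARS1 exceeded MARS2 33.9-fold in vehicle, 16.0-fold at the low dose and 23.6-fold at the high dose. WARS1 exceeded WARS2 26.4-fold, 24.2-fold and 17.7-fold. LARS1 was the reverse, at 0.11, 0.25 and 0.26 of the level of LARS2.

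Averaged over the doses, the ratio was higher with rhFGF19 than in vehicle in 9 of the 13 pairs and lower in 4, with a median shift of 0.34 on the log2 scale. TARS1 to TARS2 shifted most, from 0.77 in vehicle to 2.82 and 2.95, so the order of the pair differed. CARS1 to CARS2 also crossed, from 0.80 to 1.54 in both rhFGF19 libraries. YARS1 to YARS2 crossed the other way, from 1.49 to 0.72 and 0.73. With the GC trend removed the median shift was 0.12, and 8 of 13 pairs moved toward the cytosolic gene. The YARS1 and YARS2 pair was still apart by -1.29 with the median GC content and by -0.33 with that of the longest transcript.

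HARS1 and HARS2 start back to back on chromosome 5 and are read in opposite directions. HARS1 was at 15.0 FPKM in vehicle, 15.3 at the low dose and 15.5 at the high dose, and HARS2 at 6.51, 11.8 and 10.5 FPKM. HARS1 was therefore level across the libraries while HARS2 was 1.80-fold and 1.60-fold higher than in vehicle. Relative to genes of similar GC content, HARS1 was at -0.38 and HARS2 at -0.017 by the median GC content. By the longest transcript they were at -0.97 and 0.097. The 84 bases between their RefSeq starts (GRCh38.p14, chr5:140691371-140691454, plus strand, the strand of HARS2) are shown because they serve both genes. Capitals mark the ETS core CCGGAAG in either direction, which stands once near each start.
HARS1 to HARS2: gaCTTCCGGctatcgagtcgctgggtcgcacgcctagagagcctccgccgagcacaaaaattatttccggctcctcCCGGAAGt
The ETS core was found on either strand in the promoters, from 250 bases before to 50 after the start, of 16 of the 30 members that RefSeq's table held, and in those of 12.2% of all genes in that table and 23.2% of the genes tested here, a gene counting once for any of its promoters. In the deposited table the listed spans of HARS1 and HARS2 overlap by 108 bases, so reads there could be assigned to either gene where strand was not used. HARS2 also overlaps ZMAT2 on its own strand by 612 bases. ZMAT2 was at 30.77 FPKM in vehicle, 48.96 at the low dose and 51.51 at the high dose. HARS1 overlaps WDR55 on the other strand by 1090 bases and DND1 on its own strand by 542 bases. The part of these overlaps in the values of HARS1 and HARS2 was not tested.

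Since ATF4 is a known regulator of synthetase genes, the letters TGATGCAA of the C/EBP-ATF composite element were searched on both strands in the same promoters. They stood in those of 6 of the 16 cytosolic and 0 of the 14 mitochondrial members that had a promoter there. Members without one could not be searched. The share was 1.08% of all genes in the table and 0.654% of the genes tested. With any base in the sixth place (TGATGNAA), which overlaps the first motif, the members were 8, with GARS1 and YARS2 added, against 4.46% of all genes and 2.53% of the genes tested. The windows of 30 bases around the exact matches are shown to let their flanks be compared, on the strand of each gene, with the match in capitals (TTGCATCA where it lies on the other strand).
TARS1 (chr5:33440956-33440985, plus strand): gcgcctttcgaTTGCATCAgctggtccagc
IARS1 (chr9:92293692-92293721, minus strand): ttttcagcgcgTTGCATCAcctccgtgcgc
CARS1 (chr11:3057407-3057436, minus strand): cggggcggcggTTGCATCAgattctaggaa
MARS1 (chr12:57488053-57488082, plus strand): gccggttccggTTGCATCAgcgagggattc
AARS1 (chr16:70289675-70289704, minus strand): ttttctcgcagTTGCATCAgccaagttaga
NARS1 (chr18:57621804-57621833, minus strand): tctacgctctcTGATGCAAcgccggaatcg
The match began 13 bases before the start in IARS1, 4 before it in MARS1, and 2 before it in CARS1, and at base -187 in AARS1. In TARS1 it began at base 3 and in NARS1 at base 15 of the transcript. A match is a stretch of letters and says nothing of binding.

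These 6 genes did not share a fold change. TARS1, NARS1 and IARS1 had averaged log2 fold changes of 1.78, 1.65 and 1.63, with transcript GC contents of 44.2%, 43.3% and 42.7%. CARS1, MARS1 and AARS1 had 0.73, 0.27 and 0.046, with GC contents of 52.8%, 52.6% and 53.0%. Relative to genes of similar GC content they lay between -0.31 for AARS1 and 0.48 for TARS1. Of 15 other known ATF4 targets, 14 were tested and 4 were past 2-fold higher in both rhFGF19 libraries, with a median averaged log2 fold change of 0.0058. VLDLR among the 4, at 0.25 FPKM in vehicle, passed the limit on low values through the rhFGF19 libraries only. Over all genes tested, 36.2% were past 2-fold higher in both, and 4.93% of those at 52% GC or above. The list's median GC content was 56.4%, and with the GC trend removed its median was 0.022. The 4, ASNS, PSAT1, SLC7A11 and VLDLR, had GC contents under 48%, where 75.0% of all genes were past 2-fold higher in both. ASNS, asparagine synthetase, was highest at 1.77, 7.25 and 6.50 FPKM, and PHGDH, of serine synthesis, lowest at 78.5, 45.7 and 47.4 FPKM. ATF4 itself was at 100.1 FPKM in vehicle, 113 at the low dose and 118 at the high dose.

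Among genes that sense uncharged tRNA or act on eIF2, with ATF4 counted among them, 5 of 7 were past 2-fold higher in both rhFGF19 libraries. Of all genes 36.2% were, and of those under 48% GC 75.0%. ATF4 and PPP1R15A, not among the 5, had GC contents of 56.7% and 57.7%. The list's median GC content was 45.4%. EIF2AK3, at 0.27 FPKM in vehicle, passed the limit on low values through the rhFGF19 libraries only. EIF2AK4, the kinase GCN2, which binds uncharged tRNA, was at 1.03, 3.10 and 2.94 FPKM. The highest of the list, EIF2AK2, was at 0.94, 3.84 and 3.25 FPKM, and the lowest, PPP1R15A, which helps remove the phosphate from eIF2, at 158, 138 and 137 FPKM. The list had a median averaged log2 fold change of 1.37 and of 0.24 with the GC trend removed. Of 8 interferon gamma targets set beside WARS1, 3 of the 6 tested were past 2-fold higher in both libraries, beside the 36.2% of all genes. GBP1 was highest at 1.17, 4.01 and 4.90 FPKM, and PSMB9 lowest at 37.8, 21.0 and 20.8 FPKM. Relative to genes of similar GC content WARS1 was at -0.022.

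Partners of the mitochondrial enzymes were also measured. Mitochondria make glutaminyl-tRNA through an amidotransferase rather than a synthetase of their own. Its subunit GATC was at 5.37, 11.4 and 14.6 FPKM, QRSL1 at 0.79, 2.35 and 1.61 FPKM, and GATB at 4.88, 4.90 and 4.72 FPKM. Of these and the formyltransferase MTFMT, only GATC was past 2-fold higher in both libraries, where 36.2% of all genes were. Of 10 mitochondrial translation factors, 8 were past 2-fold higher in both, and of all genes 36.2%. MTRF1 and MRRF among these, at 0.35 and 0.32 FPKM in vehicle, passed the limit on low values through the rhFGF19 libraries only. The elongation factor TUFM, which brings charged tRNA to the mitochondrial ribosome, was lowest at 270 FPKM in vehicle, 180 at the low dose and 185 at the high dose. The release factor MTRF1 was highest at 0.35, 1.51 and 2.14 FPKM. The median GC content was 44.1% for these factors and 52.1% for the synthetases, and with the GC trend removed their medians were 0.29 and -0.086.

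Of 6 genes for elongation in the cytosol, 1 was past 2-fold higher in both rhFGF19 libraries, where 36.2% of all genes were. Their median GC content was 56.6%, and 4.93% of all genes at 52% or above were. The gene was EEF1A1, which delivers charged tRNA to the ribosome. EEF1A1 was at 294 FPKM in vehicle, 1330 at the low dose and 1280 at the high dose, and remained 0.98 above genes of similar GC content. EEF1A1 has many near-identical processed copies, so its FPKM is uncertain. EEF1G was lowest at 1712, 884 and 948 FPKM, and this list had a median averaged log2 fold change of -0.35. Of 6 other enzymes acting on tRNA or its charging, 4 were tested. Only TRNT1, which adds the CCA end of every tRNA, was past 2-fold higher in both, beside the 36.2% of all genes. The median GC content of the 4 was 47.3%, and 75.0% of all genes under 48% were. AARSD1, which removes wrongly attached amino acids, was lowest at 11.1, 10.4 and 11.3 FPKM.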

How the data were processed

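Messenger RNA of LX-2 cells was sequenced by Illumina short reads after poly(A) selection per the labels, 1 library for each condition. Per the study's methods, HISAT2 did the mapping. The values the authors deposited are FPKM, given to 2 decimals. The submitters' processing notes name HISAT2 2.0, StringTie 1.3.0 and Bowtie 0.12.2 and the builds hg19 and mm8, without their roles. The coordinates of all 36 members overlapped their GRCh38 positions in GENCODE 29. How FPKM were computed and filtered is not given in the sources used here.

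From the deposited FPKM, log2(FPKM + 0.1) was compared between libraries where the mean reached 0.5 FPKM, and 2-fold, the study's criterion, was the threshold. GC content and length were medians over a gene's listed transcripts in GENCODE 29, found for 99.6% of genes tested, and trends were removed by loess with a span of 0.3. All 36 members were accounted for, with full values for those past 2-fold, the extremes and the complex. Of the other lists, the highest and lowest genes by averaged log2 fold change were named, with a few key genes chosen after their values were seen. Promoters were RefSeq's. Members and lists were chosen with earlier results of these data known. Of the alternatives, 10 were planned and 1 was added after seeing the data. The code was tested on simulated data. Python 3.11.15, NumPy 2.4.6, pandas 2.3.3, SciPy 1.17.1, statsmodels 0.14.6 and matplotlib 3.10.9 were used.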

Additional observations from a re-analysis of the deposited data

How the results depend on the processing

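With 1 library per condition no replicate could be left out, and depth was unknown. No paired analysis was possible because each condition has 1 library. The spread used to say that a value moved was 0.24 on the log2 scale, the SD between the rhFGF19 libraries over all genes divided by the square root of 2, and a count was said to move when it changed by more than 1.5 times. With a pseudocount of 0.01, no filter on low values, a mean of at least 1 FPKM or TPM, no median or count moved that far. The number of mitochondrial enzymes past 2-fold higher at 50 ng/mL was 5 with 0.01 and 6 with TPM, and that of cytosolic enzymes was 10 at each dose with no filter. With a pseudocount of 1, 6 cytosolic and 3 mitochondrial enzymes were past 2-fold higher at each dose. With the median ratio set to 0, 1 cytosolic enzyme was past 2-fold lower at each dose and 1 mitochondrial enzyme at 50 ng/mL.

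With the GC trend removed, the medians at 50 and 100 ng/mL were 0.15 and 0.074 for cytosolic and -0.11 and -0.075 for mitochondrial enzymes, differences of 0.26 and 0.15. With the GC and length trends both removed they were 0.16 and 0.14 and -0.10 and -0.16, differences of 0.26 and 0.29. Under both, 0 enzymes of either compartment were past 2-fold. With the GC trend of the longest transcript removed, the medians were 0.29 and 0.26 and -0.16 and -0.095, differences of 0.45 and 0.35. Under that setting 1 cytosolic and 0 mitochondrial enzymes were past 2-fold higher at each dose. With the length trend removed, the medians were 0.33 and 0.29 and -0.21 and -0.18, differences of 0.54 and 0.47. Then 1 mitochondrial enzyme was higher at 50 and 2 at 100 ng/mL, and 1 cytosolic and 2 mitochondrial enzymes were lower at each dose. With quantile normalization, the mitochondrial medians were -0.17 and -0.27, the differences 0.78 and 0.81, 0 mitochondrial enzymes were higher and 1 lower at 50 ng/mL, and 1 was higher at 100 ng/mL. Trend removal and quantile normalization centre the fold changes on other genes by construction. Averaged log2 fold changes past 2-fold that turned negative were those of IARS2 (-0.0075), NARS2 (-0.22) and WARS2 (-0.14) with the GC trend removed, MARS2 (-0.068), NARS2 (-0.15) and WARS2 (-0.17) with both trends removed, and NARS2 (-0.071) and WARS2 (-0.29) with the longest transcript.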
